A study of Mus musculus with 6 samples.

Results

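DUSP, Sprouty and RGS proteins are brakes that T cells switch on once they are stimulated. The dual-specificity phosphatases (DUSP) remove phosphate from the MAP kinases ERK, JNK and p38, the Sprouty proteins (Spry) restrain signaling from receptors through RAS to ERK, and the regulators of G protein signaling (RGS) speed the hydrolysis of GTP by G alpha subunits, which ends signals from chemokine receptors. Many of these genes are transcribed in response to the pathways they restrain, and several are well-known activation or exhaustion transcripts of CD8 T cells. Here 10 of them, given as a list of names by a choice made with earlier results of these data known, were followed among the 32285 genes counted. They are Dusp1, Dusp2, Dusp4, Dusp5, Dusp6, Dusp10, Spry1, Spry2, Rgs1 and Rgs16, and each of the 10 was present in the files.

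CD8 T cells were sorted from B16-OVA tumors, a mouse melanoma that expresses ovalbumin, and from the draining lymph nodes (LN) of the same hosts 12 days after engraftment, as the labels give it. The study's own text allows for a somewhat later harvest. Control mice were CD8-Cre Rosa26Tomato, and CD8-IFNγRKO mice were CD8-Cre IFNgR1flox/flox Rosa26Tomato, so that both genotypes carried the Cre and the Tomato reporter and only the latter carried the floxed Ifngr1, to be deleted where the CD8-driven Cre was active. Cells positive for CD45, CD3, CD8 and Tomato from 3 mice per genotype gave 1 library per tissue, 4 in all, and nothing in the files ties a cell to a mouse. Each group was therefore 1 sample, no test between groups was possible, and the 95% intervals describe counting error and say nothing of how mice differ.

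After filtering, the libraries held 6641 to 8636 cells and 28841136 to 93995655 unique molecular identifiers (UMIs, tags of single RNA molecules). Median UMIs per cell were 4051 and 3863 in control and CD8-IFNγRKO LN, and 6308 and 9402.5 in control and CD8-IFNγRKO tumors. Pairs of libraries shared 169 to 249 cell barcodes, at most 2.19% of the smaller library. Levels are given as CPM, a gene's share of all UMIs of the pooled cells scaled to a total of 1000000. Ifngr1, the targeted gene, was at 718 CPM in control and 237 CPM in CD8-IFNγRKO tumors, and at 182 and 137 CPM in LN. UMIs of it thus remained in both CD8-IFNγRKO libraries, and the difference from control was smaller in LN. These counts cannot show whether the remaining RNA came from an intact or a deleted gene. The comparison of genotypes in LN rests on the label. All 7 CD8 T cell markers were detected in each library. Cells were sorted on CD3 and CD8 and kept only with UMIs of Cd2, Cd8a and Cd8b1. The detection of Cd2, Cd8a and Cd8b1 was thus set by the filter and is no check of cell identity. The 11 macrophage or dendritic cell markers summed to 87.6 CPM in control tumors, 30.0 CPM in CD8-IFNγRKO tumors, 11.8 CPM in control LN and 19.6 CPM in CD8-IFNγRKO LN, with 0, 1, 1 and 4 of them at 0. Marker sums of B cells, CD4 T cells, NK cells, melanoma and neutrophils were at or under 22.2 CPM in every library.

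The promoters of 8 of the 10 genes were found in the RefSeq table for GRCm38.p6 (the deposited labels give mm10, the same build). The 250 bases upstream of the start site are shown for Dusp1, whose level was higher in LN than in tumors, and for 3 genes whose level was lower in CD8-IFNγRKO than in control tumors, so that the motifs of these genes can be compared. They lie at chr17:26508473-26508722 (minus strand, Dusp1), chr19:53528895-53529144 (plus strand, Dusp5), chr1:184034131-184034380 (plus strand, Dusp10) and chr14:105896820-105897069 (minus strand, Spry2). Capitals mark matches to the cAMP response element (CRE), its 6-base core, NF-kB and CArG motifs.
Dusp1: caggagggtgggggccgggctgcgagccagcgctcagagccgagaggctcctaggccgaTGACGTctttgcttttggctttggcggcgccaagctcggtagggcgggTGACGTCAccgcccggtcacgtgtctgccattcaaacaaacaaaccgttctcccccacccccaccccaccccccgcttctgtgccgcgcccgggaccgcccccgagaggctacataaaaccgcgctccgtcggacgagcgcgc
Dusp5: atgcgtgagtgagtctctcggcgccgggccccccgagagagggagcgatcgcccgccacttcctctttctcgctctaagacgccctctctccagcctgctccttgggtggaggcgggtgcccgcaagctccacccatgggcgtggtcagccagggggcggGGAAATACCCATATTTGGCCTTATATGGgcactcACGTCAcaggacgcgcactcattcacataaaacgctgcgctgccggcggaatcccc
Dusp10: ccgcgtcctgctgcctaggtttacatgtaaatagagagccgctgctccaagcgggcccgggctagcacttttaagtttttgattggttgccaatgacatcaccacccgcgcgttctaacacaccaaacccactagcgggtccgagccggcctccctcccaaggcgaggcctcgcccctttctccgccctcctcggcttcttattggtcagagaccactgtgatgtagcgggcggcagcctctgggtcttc
Spry2: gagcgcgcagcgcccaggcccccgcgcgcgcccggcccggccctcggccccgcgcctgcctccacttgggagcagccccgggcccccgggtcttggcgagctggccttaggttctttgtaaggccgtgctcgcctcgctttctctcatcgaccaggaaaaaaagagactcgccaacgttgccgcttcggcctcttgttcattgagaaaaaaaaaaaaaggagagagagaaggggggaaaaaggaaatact

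Motifs were searched on both strands of these upstream windows. The CRE (TGACGTCA), the element bound by CREB, was found in Dusp1 only, 143 to 136 bases before the start, and in 1.55% of all 32817 windows. Its core TGACGT, which every CRE also holds, was found in Dusp1 and Dusp5, and in 6.46% of windows. Dusp5 held an NF-kB match (GGGNN followed by TTTCC, 1.41% of windows) 90 to 81 bases before the start, and 2 CArG boxes, the element of serum response factor (1.47% of windows), from 82 to 73 and from 72 to 63 bases, the first of which overlaps the NF-kB match by a few bases. The E-box CACGTG was found in Dusp1 and Dusp2 (6.02% of windows). AP-1 (TGANTCA, 6.75% of windows) and the gamma-activated site GAS (TTCNNNGAA, 7.01% of windows) were not found in any of the 8 windows. The GC content of the 8 windows was 56.4% to 70.4%, beside a median of 52.4% over all windows. These are matches of letters in a short window and are not evidence of binding, or of its absence, at these genes.

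Tissue separated the 10 genes more than genotype did. The genes fell into a group with higher levels in tumors (Rgs16, Dusp4, Spry2, Dusp5, Spry1 and Rgs1), a single gene with a lower level (Dusp1) and 3 with smaller differences (Dusp2, Dusp6 and Dusp10). Of the 10 genes in control mice, 6 were higher in tumors by a log2 ratio of at least 1 (1 CPM added to both sides), where 15.6% of all 8167 genes that reached 10 CPM on either side were, and 1 was lower, where 10.2% of all genes were. In CD8-IFNγRKO mice, 9 genes reached 10 CPM in either library, 5 of them were higher (16.8% of all 8230 genes) and 1 was lower (12.1%). The count of lower genes was thus near the share of all genes in both genotypes. Scaled without TCR, heat shock, ribosomal and mitochondrial genes, or by the median ratio, 5 were higher and 2 were lower in CD8-IFNγRKO mice, with Dusp10 added to Dusp1. Rgs16, Dusp4, Spry1 and, in control mice, Spry2 reached 10 CPM in tumors but not in LN, so that they entered these counts only through the tissue in which they were higher. Of the other 6 genes, which reached 10 CPM in both tissues, 2 were higher (Dusp5 and Rgs1) and 1 was lower (Dusp1) in each genotype. Tumors were digested for 30 min at 37C and LN were not, so that tissue and handling cannot be told apart. Cell states also differed between the tissues. By the same threshold, 10 of 10 naive genes were lower in tumors in each genotype, and 8 of 9 exhaustion and 7 of 7 cycling genes were higher. The part of cell state in these ratios was not tested.

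**Figure D1:**
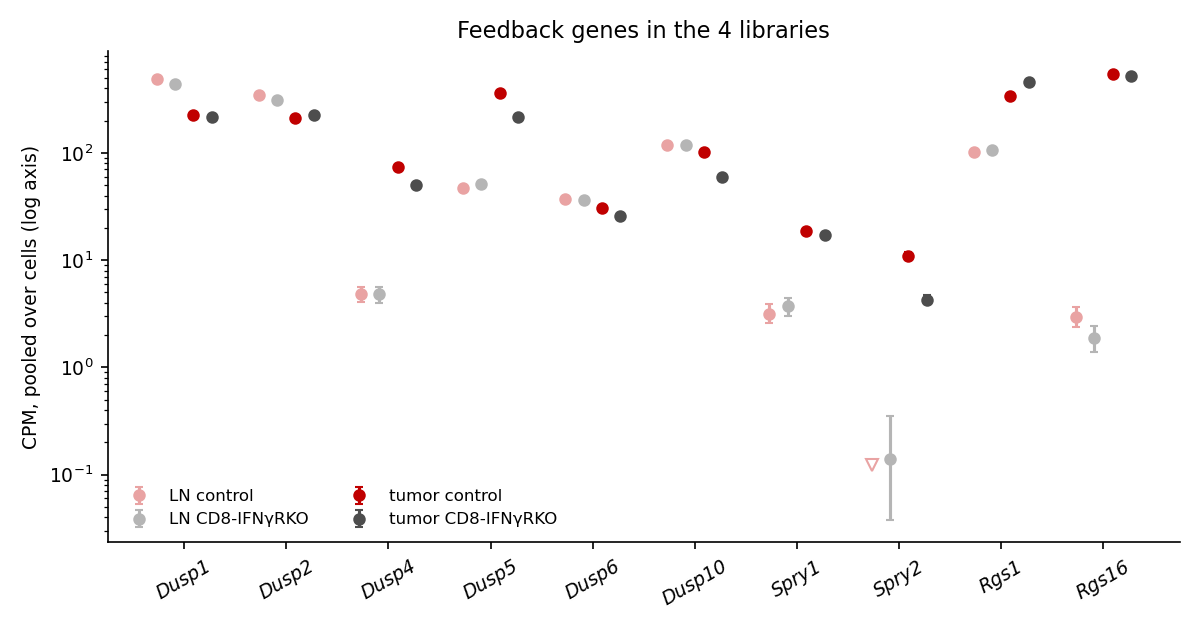
Pooled CPM (log axis) of each gene in the 4 libraries, with 95% Poisson intervals that cover counting error only; the open triangle is the upper limit for Spry2 in control LN, where no UMI was found. Rgs16, Dusp4, Dusp5, Spry1, Spry2 and Rgs1 lie higher in both tumor libraries than in both LN libraries, and Dusp1, Dusp2, Dusp6 and Dusp10 lie lower.

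Among the nuclear phosphatases that are induced by stimulation, Dusp4 and Dusp5 were higher in tumors. Dusp4 (ENSMUSG00000031530, chr8:34807610-34819894) was at 4.81 CPM in control LN, 4.78 CPM in CD8-IFNγRKO LN, 74.5 CPM in control tumors and 50.2 CPM in CD8-IFNγRKO tumors, a log2 ratio of tumor over LN of 3.70 (3.46 to 3.95) in control and 3.14 (2.91 to 3.39) in CD8-IFNγRKO mice. Both tumor libraries lay above both LN libraries, and the LN intervals overlapped. Dusp5 (ENSMUSG00000034765, chr19:53529145-53541809), which acts on ERK, was at 46.8, 51.6, 361 and 218 CPM in the same order, with log2 ratios of 2.92 (2.84 to 3.00) and 2.06 (1.98 to 2.14). In cells thinned to 1600 UMIs, so that all had the same depth, a Dusp5 UMI was found in 6.89% and 7.34% of LN cells and in 43.6% and 29.4% of tumor cells, control first.

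Dusp1 and Dusp2, also nuclear and induced within minutes of stimulation, ran the other way. Dusp1 (ENSMUSG00000024190, chr17:26505591-26508472), the immediate early phosphatase of p38 and JNK, was at 487 CPM in control LN, 436 CPM in CD8-IFNγRKO LN, 227 CPM in control tumors and 214 CPM in CD8-IFNγRKO tumors, and no intervals overlapped. Its log2 ratio was -1.10 (-1.13 to -1.07) in control and -1.03 (-1.06 to -0.99) in CD8-IFNγRKO mice, close to the threshold. When each cell counted equally (mean of per-cell CPM), the ratios were -0.79 and -0.57, and in cells thinned to 1600 UMIs they were -0.77 and -0.61, so that Dusp1 no longer passed it under either. Dusp2 (ENSMUSG00000027368, chr2:127336159-127338377), known as PAC-1 in lymphocytes, was at 344, 309.5, 213 and 225 CPM, with log2 ratios of -0.69 and -0.46, and both LN libraries lay above both tumor libraries. Dusp1 was detected in 48.7% and 46.4% of thinned LN cells and in 27.9% and 27.3% of thinned tumor cells.

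Dusp6 and Dusp10 differed less between tissues than Dusp2 in control mice, but not in CD8-IFNγRKO mice. Dusp6 (ENSMUSG00000019960, chr10:99263231-99267489), the cytoplasmic phosphatase of ERK, was at 36.9 and 36.6 CPM in LN and 30.7 and 25.7 CPM in tumors. The LN intervals overlapped, and the log2 ratios were -0.26 in control and -0.49 in CD8-IFNγRKO mice. Dusp10 (ENSMUSG00000039384, chr1:184034381-184075636), which acts on JNK and p38, was at 118 and 117 CPM in LN, 103 CPM in control tumors and 59.1 CPM in CD8-IFNγRKO tumors. Its log2 ratio of tumor over LN was -0.19 (-0.25 to -0.14) in control and -0.98 (-1.04 to -0.92) in CD8-IFNγRKO mice, the latter just short of the threshold.

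Both Sprouty genes were at low levels in LN cells pooled. Spry1 (ENSMUSG00000037211, chr3:37639947-37644599) was at 3.17 and 3.71 CPM in LN and 18.8 and 17.3 CPM in tumors, with overlapping intervals within each tissue and log2 ratios of 2.24 (1.96 to 2.55) and 1.96 (1.69 to 2.24). Spry2 (ENSMUSG00000022114, chr14:105891947-105896819) had no UMI in control LN, which allows up to 0.1 CPM (3 UMIs), and 4 UMIs in CD8-IFNγRKO LN, beside 650 and 402 UMIs in tumors (10.9 and 4.28 CPM). Its level in tumors was thus at least 109-fold higher in control mice and 30.8-fold higher (12.0 to 114) in CD8-IFNγRKO mice. Even in tumors Spry2 was sparse, found in 1.64% and 0.67% of thinned cells. With 10 CPM added in place of 1, the log2 ratios of Spry1 were 1.13 and 0.99, the latter just inside the threshold.

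Both RGS genes were higher in tumors, and with 1 CPM added Rgs16 had the largest log2 ratio between tissues of the 10, although Spry2 in control mice, with no UMI in LN, has only a lower bound and cannot be ranked against it. Rgs16 (ENSMUSG00000026475, chr1:153740353-153745468) was at 2.97 and 1.87 CPM in LN and at 548 and 522 CPM in tumors, with log2 ratios of 7.11 (6.81 to 7.43) and 7.51 (7.12 to 7.92). A Rgs16 UMI was found in 0.265% and 0.194% of thinned LN cells and in 48.7% and 46.6% of thinned tumor cells. Rgs1 (ENSMUSG00000026358, chr1:144244669-144249104), which limits the response of lymphocytes to chemokines, was at 102 and 105 CPM in LN and at 339 and 453 CPM in tumors, with log2 ratios of 1.73 (1.67 to 1.78) and 2.10 (2.04 to 2.15). With 10 CPM added, Rgs16 was at 5.43 and 5.49. The LN intervals of both RGS genes overlapped between genotypes.

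**Figure D2:**
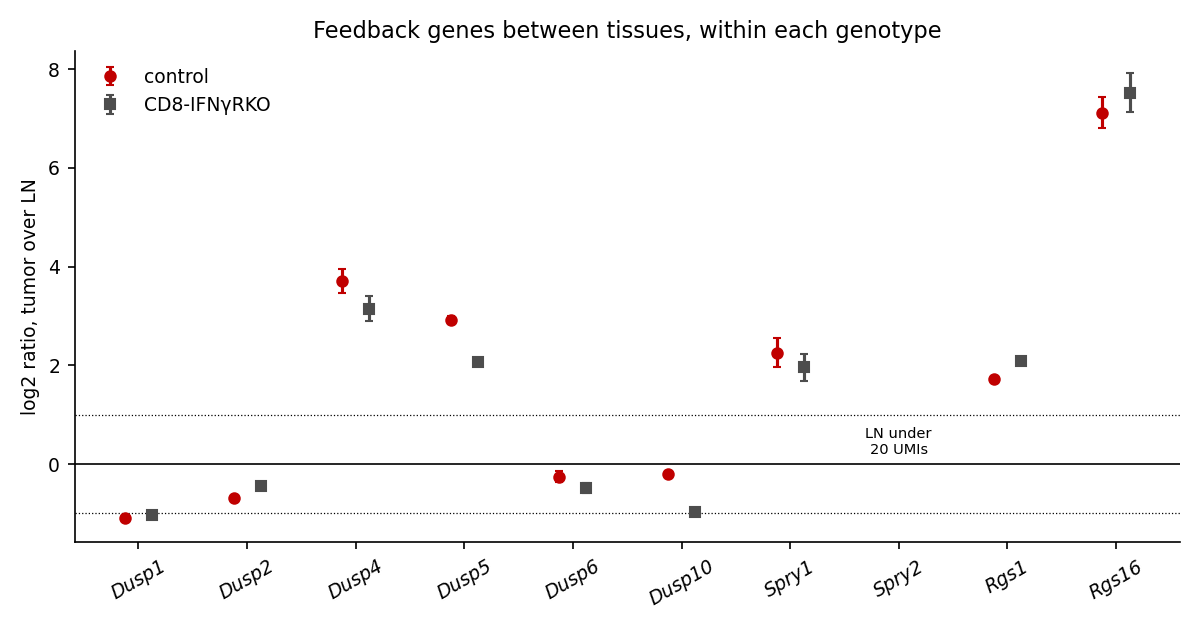
Log2 ratios of tumor over LN (1 CPM added) with 95% intervals for counting error, in control (red circles) and CD8-IFNγRKO (grey squares) mice; dotted lines mark ratios of -1 and 1, and Spry2 is left out because LN held under 20 UMIs. Rgs16 reaches 7.11 and 7.51, and Dusp1 lies near -1 in both genotypes.

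The 10 genes made up a different mix in each tissue. Of all their UMIs, Dusp1 gave 42.5% in control LN and 11.8% in control tumors, Rgs16 0.259% and 28.5%, and Dusp5 4.08% and 18.7%. A thinned LN cell held UMIs of 1.28 of the 10 genes on average in control and 1.25 in CD8-IFNγRKO mice, and a tumor cell of 2.23 and 2.02. Cells with UMIs of 5 or more of them were 0.0781% and 0.0897% of LN cells and 5.40% and 3.13% of tumor cells. Cells with none were 20.9% and 22.6% in LN and 8.70% and 11.5% in tumors.

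Other members of the same families were not uniformly higher in tumors. Of 7 other DUSP genes tested in control mice, 3 were higher and 1 was lower by the same threshold: Dusp14, an atypical phosphatase that acts on the TAK1 pathway in T cells, had a log2 ratio of 5.46, Dusp22 of 2.14, Dusp16 of 1.02 and Dusp7, an ERK phosphatase, of -1.22. Spred2, a Sprouty relative and the only one tested, was at -1.21. Of 5 other RGS genes, Rgs2 was at 2.16 and Rgs10 at -2.89. In the RAS-ERK cascade, 2 of 18 genes were higher (Mapk3, which encodes ERK1, at 1.70 and Hras at 1.22) and 1 was lower (Sos1 at -1.34), and in the JNK and p38 cascade 3 of 12 were higher and 1 was lower. The 5 tested transcripts induced by ERK had 4 higher, with Phlda1 at 2.90, and 1 lower, Myc at -2.26. Of 15 immediate early genes, which stimulation or cell handling induces, 4 were higher (Nr4a2 at 3.23) and 4 were lower (Fos at -2.65), and their summed level was 6549 CPM in control tumors and 7690.3 CPM in control LN. Their part in the result of Dusp1 was not tested. The 10 heat shock genes had none past the threshold in control mice and 1 higher in CD8-IFNγRKO mice.

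Between genotypes, 4 of the 10 genes were lower in CD8-IFNγRKO than in control tumors by a log2 ratio of at least 0.5, where 4.92% of all 7678 genes tested were, and none was higher, where 7.44% of all genes were. These were Spry2, Dusp10, Dusp5 and Dusp4. Spry2 reached 10 CPM in control tumors only, and so entered the count through the library in which it was higher, whereas the other 9 reached it in both. Spry2 had a log2 ratio of -1.18 (-1.32 to -1.03), from 402 UMIs in CD8-IFNγRKO and 650 in control tumors. Dusp10 was at -0.79 (-0.84 to -0.74), Dusp5 at -0.72 (-0.75 to -0.70) and Dusp4 at -0.56 (-0.62 to -0.50). Dusp4 lay near the threshold, and over the alternative filters, scalings and added CPM its ratio ranged from -0.70 to -0.49. With 10 CPM added in place of 1, which pulls the ratios of low genes toward 0, Spry2 was at -0.55.

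The remaining 6 genes stayed within the threshold. Rgs1 had the highest ratio at 0.42 (0.39 to 0.44), with 42.6% of thinned CD8-IFNγRKO tumor cells holding a UMI of it beside 35.3% of control cells. Dusp6 was at -0.25 (-0.34 to -0.17), Spry1 at -0.11 (-0.22 to -0.01), Dusp1 at -0.08 (-0.12 to -0.05), Rgs16 at -0.07 (-0.09 to -0.05) and Dusp2 at 0.08 (0.05 to 0.12). The direction of Dusp1 was not stable, at 0.074 with the mean of per-cell CPM and 0.025 in thinned cells. Dusp6 was at -0.46 in thinned cells, outside its interval in the pooled cells and near the threshold. Rgs16 lay under 0 and Rgs1 above it in the pooled cells.

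In LN, none of the 6 genes with at least 10 CPM passed the threshold in either direction, and 0.243% of all 7421 genes were higher and 0.431% were lower. The ratios ran from -0.16 for Dusp1 and -0.15 for Dusp2 to 0.05 for Rgs1 and 0.14 (0.03 to 0.24) for Dusp5. Dusp10, with -0.0018 (-0.07 to 0.07), and Dusp6, with -0.01 (-0.13 to 0.11), had intervals that include 0. The other 4 genes were under 10 CPM in both LN libraries, and of these Rgs16 had 54 UMIs in CD8-IFNγRKO and 89 in control LN.

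**Figure D3:**
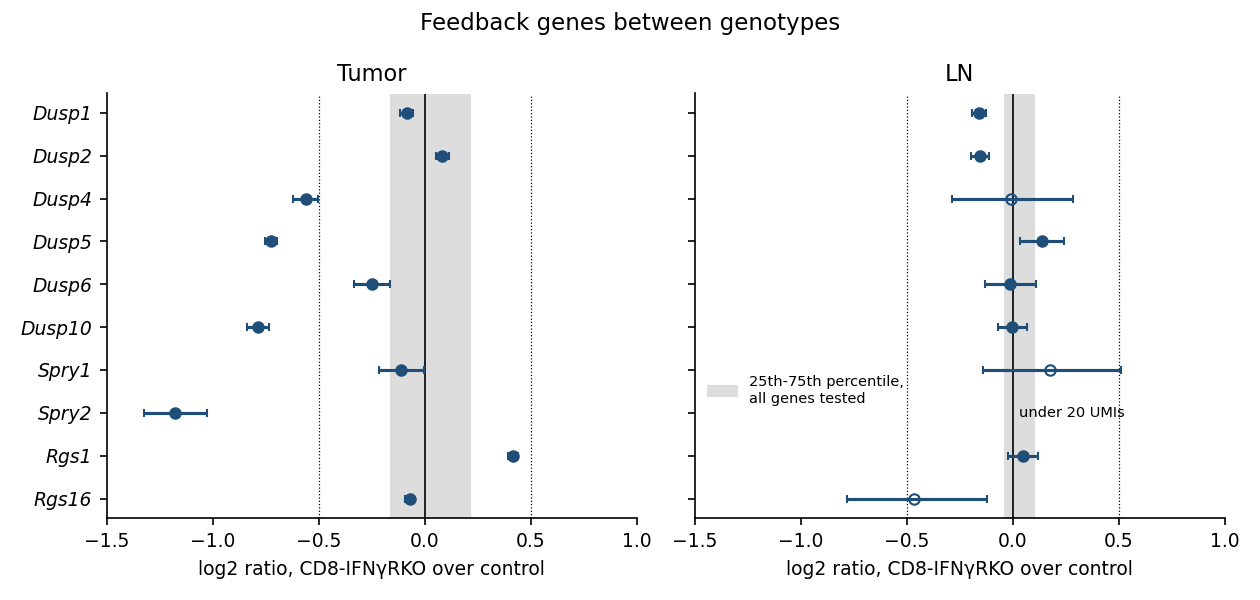
Log2 ratios of CD8-IFNγRKO over control (1 CPM added) in tumors and LN with 95% intervals for counting error; open circles are genes under 10 CPM in both libraries, dotted lines mark -0.5 and 0.5, and the grey band spans the 25th to 75th percentile of all genes tested. In tumors Spry2, Dusp10, Dusp5 and Dusp4 lie left of -0.5, whereas in LN no gene passes either line.

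Few genes around these brakes passed the threshold between the tumor libraries, where 7.44% of all genes were higher and 4.92% were lower. In lists this short, none past it does not differ clearly from those shares. None of 7 other DUSP genes, 17 genes of the RAS-ERK cascade, 10 genes of the JNK and p38 cascade or 9 G protein subunits passed the threshold. Rasgrp1, which loads RAS with GTP downstream of the TCR, came closest in the RAS-ERK cascade at -0.49. Of 6 other RGS genes, Rgs8 was higher at 1.07, and Rgs2 was at -0.49. Not all 6 reached 10 CPM in control tumors, so that Rgs8 may have entered the count only through the library in which it was higher. Of 20 other brakes of TCR signaling, Cish, an adaptor that restrains TCR signaling, was lower at -0.64 and Tnfaip3, which encodes the NF-kB inhibitor A20, at -0.63. Of 5 transcripts induced by ERK, Egr1 was lower at -1.25 and Myc was higher at 1.14.

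Other gene groups moved between the same libraries. Of 15 immediate early genes, 7 were lower and 1 was higher in CD8-IFNγRKO tumors, with a median of -0.47 and a summed level of 4751 CPM beside 6549 CPM in control tumors. The lowest were Nr4a3 at -1.19 and Nr4a1 at -1.07, orphan nuclear receptors induced by TCR stimulation. Of 10 heat shock genes, 8 were higher, with Hspa1a at 1.89. Of 7 cycling genes, 5 were higher, with Birc5 at 0.66, and of 6 genes of NF-kB activation 3 were lower, with Rel at -0.86. Of 9 exhaustion genes 3 were lower, with the inhibitory receptor gene Lag3 at -0.81. The 6 CD8 T cell markers tested lay between -0.51 (Cd8a) and -0.32 (Cd8b1). Of 8 memory genes, Ccl5 was lower at -1.57 and Gzmk was higher at 0.75. Of 4 stem-like genes 2 were higher, with Xcl1 at 1.63. Of 7 naive genes 3 were higher and none was lower by the threshold, but their median was -0.088. Tcf7, at 0.58, was counted as higher in both lists. Of 8 interferon-stimulated genes Usp18 was higher at 0.82. In LN, 6 of 10 heat shock genes were higher, and no gene of the pathway lists or immediate early genes passed. The macrophage or dendritic markers that differed were lower in CD8-IFNγRKO tumors, 3 of the 3 tested. Without the 45 control and 21 CD8-IFNγRKO tumor cells that held UMIs of 3 or more such markers, Spry2 was at -1.18, Dusp10 at -0.79, Dusp5 at -0.72 and Dusp4 at -0.57. The part of these other gene groups in the results was not tested.

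To ask where in the tissue the differences lay, the cells of each tissue were clustered without the 10 genes. Tumor cells formed 6 clusters. T0, led by Ccl5 and Csf1, held 52.9% of control and 29.3% of CD8-IFNγRKO cells. T1 was led by mitotic and histone genes, T2 by Mcm2, Mcm3 and genes of sterol synthesis, and T3 by histone genes in cells of few UMIs. T4 was naive-like by its leading genes, among them Tcf7, Klf3 and S1pr1, with 336 control and 845 CD8-IFNγRKO cells. T5 was led by Xcl1, Crtam and Il2, with 147 and 329 cells. Pdcd1, the gene of PD-1, was in T4 at 182 and 233 CPM, control first. All LN cells had it at 0.902 and 1.04 CPM, and all tumor cells at 818 and 619 CPM. The paper calls its own tumor cluster with Tcf7, Il7r and Ccr7 stem-like. Cells of a cluster come from 1 library per genotype and are not replicates.

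Most of the 10 genes were higher in T5 than in the other tumor cells. In control tumors, 8 of the 10 were higher in T5 than in the other cells by a log2 ratio of at least 0.5 (13% of all genes), and none was lower (17.2%). In CD8-IFNγRKO tumors 7 of the 10 were higher (13.2%) and none was lower (13.5%), with Spry2 at 10 CPM or more in T5 only. Spry1 was at 104.5 CPM in T5 beside 17.6 CPM in the other control cells, a log2 ratio of 2.51 (2.17 to 2.82), and Dusp1 at 603 beside 221 CPM. Rgs16 reached 1099.7 CPM and Dusp4 185 CPM in control T5, and 925 and 153 CPM in CD8-IFNγRKO T5. Dusp10 was under 0 in T5, at -0.41 and -0.46 in control and CD8-IFNγRKO tumors. Dusp6, at 0.37 and 0.20, and in CD8-IFNγRKO tumors Rgs1, at 0.11, were above 0 but inside the threshold.

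The naive-like T4 showed a split among the brakes. In control tumors Dusp1, Dusp2 and Dusp10 were higher in T4 (18% of all genes), and Rgs16, Dusp4, Spry2, Dusp6 and Spry1 were lower (23.6%), of which Spry1 and Spry2 reached 10 CPM only in the other cells. In CD8-IFNγRKO tumors the same 3 were higher (19.8%). Of the 9 genes tested Rgs16 and Dusp4 were lower, no more than the share of all genes (25%). Rgs16 was at 55.2 and 59.3 CPM in T4 beside 558 and 538 CPM in the other cells, log2 ratios of -3.31 (-3.68 to -2.97) and -3.16 (-3.37 to -2.95). Both values lay above those of LN cells, where Rgs16 was at 2.97 and 1.87 CPM. Dusp10 was at 192 and 122 CPM in T4 beside 101 and 56.9 CPM in the other cells. With both libraries scaled together before clustering, 2 genes were lower in the cluster with the highest Tcf7 in control tumors and 1 in CD8-IFNγRKO tumors. The shares of all genes above are those of T4 and do not apply to that cluster.

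**Figure D4:**
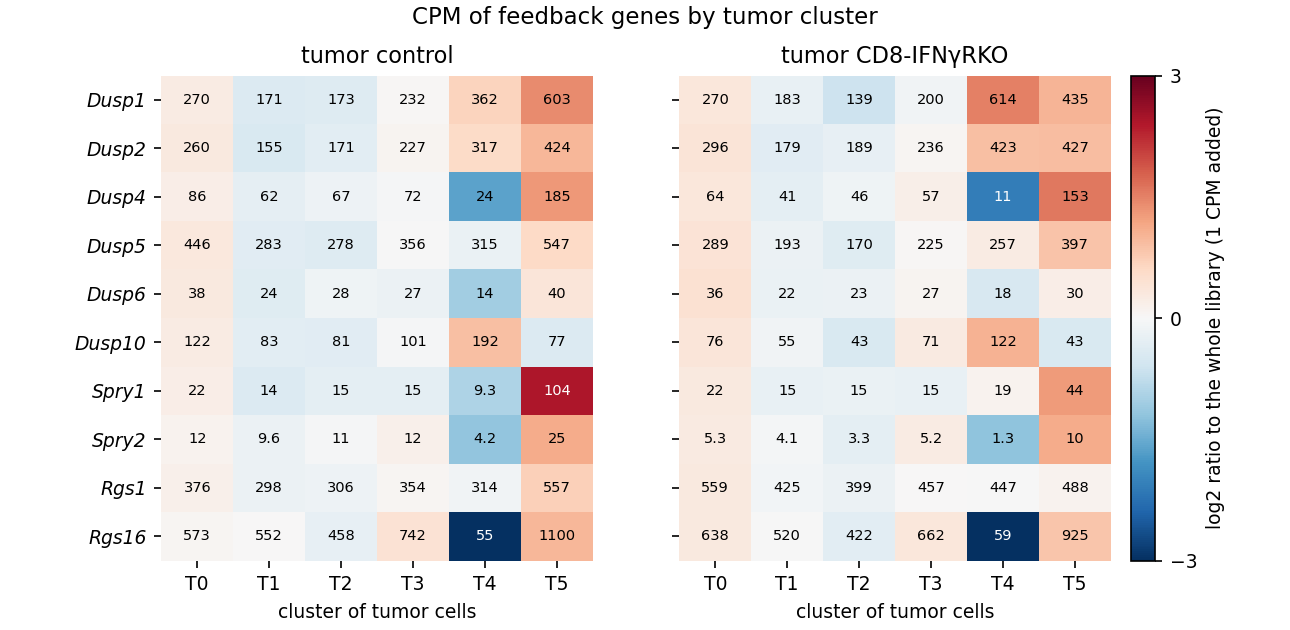
CPM of each gene (numbers) in the 6 tumor clusters of the control and CD8-IFNγRKO libraries; colour is the log2 ratio to the whole library with 1 CPM added. T5 is red for most genes, and T4 is blue for Rgs16 and Dusp4 and red for Dusp10, Dusp1 and Dusp2 in both libraries.

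The genotype ratios were also taken within each tumor cluster. Spry2, Dusp10, Dusp5 and Dusp4 were lower in CD8-IFNγRKO cells in all 6 clusters. Dusp10 ranged from -0.90 in T2 to -0.49 in T3, Dusp5 from -0.70 in T2 to -0.29 in T4, Dusp4 from -1.03 in T4 to -0.27 in T5, and Spry2 from -1.42 in T2 to -1.03 in T0. The intervals of Dusp10 and Dusp5 lay under 0 in all 6, while those of Dusp4 included 0 in T3 and T5 and those of Spry2 in T3 and T4, where Spry2 had 4 CD8-IFNγRKO and 5 control UMIs in T4. By the threshold of 0.5, the genes lower were 3 of 10 in T0 (4.38% of all genes), 3 of 9 in T1 (3.63%), 4 of 10 in T2 (5.03%), 2 of 10 in T3 (11.9%), 2 of 9 in T4 (5.53%) and 3 of 10 in T5 (13.4%). The genes higher were 1 in T0 (5.99% of all genes) and 1 in T1 (2.07%), Rgs1 in both, 3 in T4 (8.38%), namely Dusp1, Spry1 and Rgs1, and 0 in T2 (7.54%), T3 (13.7%) and T5 (20.6%). Spry2 in T0, T2 and T3 reached 10 CPM in control cells only, and Spry1 in T4 in CD8-IFNγRKO cells only. Each thus entered these counts through the library in which it was higher.

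Other genes differed in sign between clusters. Rgs1 was higher in CD8-IFNγRKO cells in 5 of the 6 clusters, by up to 0.57 in T0, and was at -0.19 (-0.35 to -0.03) in T5. Dusp1 was at 0.76 (0.61 to 0.91) in T4, where 614 CPM stood beside 362 CPM in control cells, and at -0.47 (-0.63 to -0.32) in T5. Spry1 was at 0.94 (0.06 to 1.98) in T4, from 59 and 11 UMIs, and at -1.24 (-1.65 to -0.82) in T5, from 114 and 84 UMIs. Dusp2 was above 0 in all 6 clusters, from 0.01 to 0.41.

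The clusters took different shares of the libraries, so CD8-IFNγRKO levels were also averaged with the cluster weights of the control library. Spry2 was then at -1.10, Dusp10 at -0.67, Dusp5 at -0.60 and Dusp4 at -0.48, each closer to 0 than in the pooled cells and Dusp4 inside the threshold. Rgs1 was at 0.51 and so just past it. Rgs16 turned to 0.023 and Dusp1 to 0.0035, so that both RGS genes then lay above 0.

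**Figure D5:**
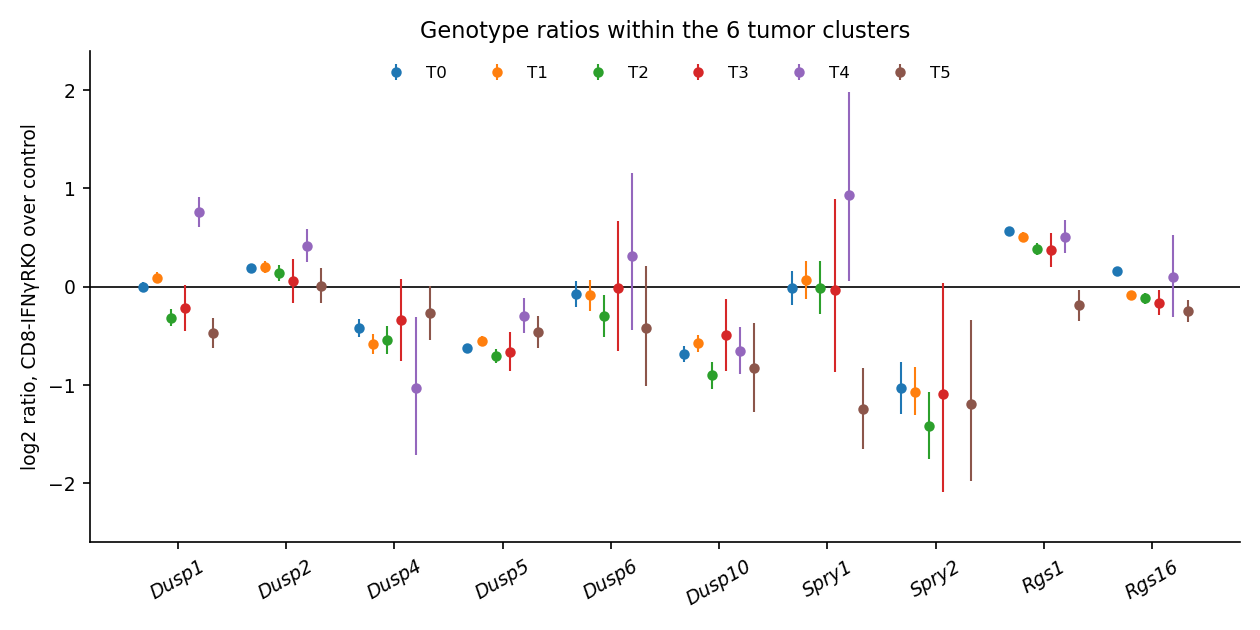
Log2 ratios of CD8-IFNγRKO over control (1 CPM added) for each gene within the 6 tumor clusters, with 95% intervals for counting error; a point with under 20 UMIs in both libraries together is left out. Dusp10, Dusp5, Dusp4 and Spry2 lie under 0 in every cluster shown, and Rgs1 lies above 0 in all but T5.

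LN cells formed 8 clusters, of which 7 in control and 6 in CD8-IFNγRKO LN had at least 100 cells. N5, led by S100a4, Ctla4, Izumo1r and Nrn1, with 338 control and 206 CD8-IFNγRKO cells, had 6 of 9 genes higher in both libraries (15.7% and 17.5% of all genes) and none lower (6.2% and 7.37%), and 3 of the 6, Dusp4, Spry1 and Rgs16, reached 10 CPM in N5 only. Rgs1 was at 286 and 284 CPM in N5, Rgs16 at 26.0 and 24.6 CPM, Spry1 at 21.7 and 30.3 CPM and Dusp1 at 713 and 712 CPM. Rgs16 and Spry1 were thus at higher levels in N5 than in the other LN cells. Their log2 ratios were 3.47 (2.87 to 4.09) and 2.96 (2.37 to 3.55) in control LN, and 3.67 (2.89 to 4.47) and 3.08 (2.46 to 3.68) in CD8-IFNγRKO LN. Many of their UMIs still lay outside N5. It held 49 of 89 Rgs16 UMIs in control and 26 of 54 in CD8-IFNγRKO LN. Of Spry1 UMIs it held 41 of 95 and 32 of 107. All tumor cells pooled had Spry1 at 18.8 and 17.3 CPM, control first, no higher than N5. Dusp5 was highest in the memory-like N2, led by Ccl5, Ly6c2, Cxcr3 and Eomes, at 92.3 and 80.3 CPM, where Dusp10 was lowest, at 69.0 and 74.8 CPM, among the clusters with at least 100 cells. Between genotypes, Dusp1 and Dusp2 were lower in CD8-IFNγRKO cells in all 6 LN clusters compared. Dusp1 ran from -0.37 in N2 to -0.00055 in N5, and Dusp2 from -0.34 in N5 to -0.062 in N3. Of genes with at least 10 CPM only Rgs1 in N4 passed 0.5, at 0.52. The share of all genes was not taken within LN clusters.

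TCR sequences of the tumor libraries gave a clone for 4284 control and 5937 CD8-IFNγRKO cells. Cells of expanded clones (5 or more cells), 4034 and 5519, were set beside cells of clones seen once, 183 and 364. In control tumors 6 of the 10 genes were higher in expanded clones by a log2 ratio of at least 0.5 (20% of all genes) and 1 was lower (14.6%). In CD8-IFNγRKO tumors 5 of 9 were higher (26.1%) and 2 were lower (17.7%). The counts of lower genes were thus near the share of all genes. Median UMIs per cell were 6270 in expanded and 4039 in single-cell clones of control tumors, and 10420 and 3997.5 in CD8-IFNγRKO tumors. The part of this difference in depth was not tested. Spry1, and Spry2 in control tumors, reached 10 CPM in expanded clones only. Rgs16 was at 561 CPM in expanded and 153 CPM in single-cell clones of control tumors, and at 536 and 50.9 CPM in CD8-IFNγRKO tumors, log2 ratios of 1.86 (1.63 to 2.11) and 3.37 (3.07 to 3.69). Dusp10 was lower in expanded clones, at -0.74 (-0.97 to -0.50) and -1.14 (-1.33 to -0.94), and Dusp1 was at 0.10 and -0.90.

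The T4 cluster held 82.5% and 92.9% of the cells of single-cell clones but 1.39% and 3.59% of those of expanded clones. Without T4 only 32 control and 26 CD8-IFNγRKO cells of single-cell clones were left. Dusp10 then turned to 0.32 (-0.27 to 0.99) and 0.96 (-0.06 to 2.26), with intervals that include 0, and Dusp4 in control tumors to -0.28 (-0.84 to 0.34). Rgs16 kept its direction at 0.33 (0.07 to 0.60) and 1.22 (0.85 to 1.62), and Rgs1 at 0.58 and 1.65. Dusp1 was at 0.78 and -1.03.

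Finally, the pattern of each gene was set beside those of 4533 genes over 25 groups of cluster and library with at least 100 cells, by Pearson's r of log2(CPM + 10). The groups share libraries, differ in depth and span both tissues. Their r thus also takes in the difference between tumor and LN and is a description only. Rgs16 was most like Plscr1 and Bcl2a1d (0.99) and the inhibitory receptor gene Lag3 (0.99), Dusp4 most like Alcam (0.98), Dusp5 most like Lilr4b and Lilrb4a (0.98) and Fasl (0.97), and Spry2 most like Tnip3 (0.98). Rgs1 was most like Fam129a (0.97), and Spry1 most like Traf1 (0.91) and Cd27 (0.89). Dusp1 was most like Zfp36 (0.94), an immediate early regulator of mRNA decay, and Dusp2 most like the kinase gene Fyn (0.91) and Dusp1 itself (0.90). Dusp10 was most like Stk17b (0.87) and Klf13 (0.85), and Dusp6 had the lowest best value, with Inpp4b (0.84).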

How the data were processed

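Single-cell RNA libraries of 5′ transcript ends (4) and TCR libraries (2) were used. The authors aligned reads with Cell Ranger 6.0.0 to mm10, per the labels, and deposited unnormalized UMI counts for every gene and barcode, and TCR contigs with counts of reads and UMIs. A barcode was kept when it had 200 to 6000 genes, a mitochondrial share of UMIs up to 3%, no single gene over 20%, and Cd2, Cd8a and Cd8b1 all detected. Doublets were not removed.

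UMIs were pooled per group as CPM. Genes with at least 10 CPM in either side, TCR segments left out, formed the background. Intervals of 95% are Poisson for CPM, conditional binomial for ratios and Clopper-Pearson for shares, and cover counting error only. With 1 library per group no test was run. Shares come from cells thinned to 1600 UMIs, which left out 41 to 701 cells per library. Cells were clustered per tissue after scaling within each library (3000 variable genes, the 10 genes left out, 15 principal components, 20 neighbours, Leiden at resolution 0.4) with Python 3.11.15, scikit-learn 1.9.0 and leidenalg 0.10.2. Clusters were named from 3 or more markers among their 10 leading genes. Clones shared V, J and CDR3 nucleotides of both chains.

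The 10 genes and all gene lists were chosen with earlier results of these data known. All 10 genes are named, and of each companion list up to 4 with the largest ratios. The intervals and the clustering were tested on simulated data. Alternatives covered cell filters, scaling, the added CPM, cluster resolution and clone definition. Leaving out cells with macrophage or dendritic markers, and cluster T4 from the clones, was chosen after seeing the data.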

Additional observations from a re-analysis of the deposited data

Results flagged for a closer look

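Dusp2 and Dusp5 had ratios of CD8-IFNγRKO over control on opposite sides of 0 in the tissues. Dusp2 had a log2 ratio of 0.084 in tumors and -0.15 in LN, and Dusp5 of -0.72 in tumors and 0.14 in LN. Each tissue had 1 library per genotype, and the difference between tissues was not tested.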

How the results depend on the processing

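Of the counts of genes past the thresholds, 74 values under an alternative stayed within 1.5 times the reported count and 14 did not. The counts between genotypes (4 lower in tumors, none in LN) were among the former under each alternative run. With 10 CPM added, 3 in place of 4 were lower in tumors, with Dusp4 at -0.49. Of genes lower in tumors than in LN (1 in each genotype), control mice had 0 with the mean of per-cell CPM and 0 with cells thinned to 1600 UMIs. CD8-IFNγRKO mice had 0 with either of these, 0 without the 5% of cells with most UMIs, 0 with 10 CPM added, and 2 with median ratio scaling or scaling without TCR, heat shock, ribosomal and mitochondrial genes. These scalings moved the median of all genes by 0.14 and -0.28 in control and by 0.17 and -0.26 in CD8-IFNγRKO mice (log2). For the Tcf7-highest tumor cluster, control tumors had 1 higher gene at Leiden resolution 0.8 in place of 3, with Dusp2 at -0.16, and 2 lower with both libraries scaled together in place of 5. CD8-IFNγRKO tumors had 5 and 1 lower in place of 2. Taking cells with a Tcf7 UMI instead turned Spry1 to 0.085 and Spry2 to 0.031 in control tumors. For expanded over single-cell clones without T4, control tumors had 0 lower, with Dusp4 at -0.28, Dusp10 at 0.32 and Spry2 at -0.074, and CD8-IFNγRKO tumors had 1 lower, with Dusp10 at 0.96 and Spry2 at -0.77, from 32 and 26 single-cell clone cells. The shares of all genes given for T4 and for the clones belong to the main settings and do not apply to these counts. Of single-gene ratios, 299 stayed, 133 moved and 8 past the threshold changed sign. The cause was not tested. No paired analysis was possible because each group is 1 library. Depth limits Spry1, Spry2, Dusp4 and Rgs16 in LN, each with at most 144 UMIs per library.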

Other observations

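Over the 25 groups of cluster and library, Dusp1 and Dusp2 varied together (Pearson's r of 0.90, and 0.95 within the 12 tumor groups). Within the 12 tumor groups Dusp4 and Rgs16 had an r of 0.87, whereas Dusp10 and Rgs16 had an r of -0.65. Other pairs depended on the groups taken. For Rgs1 and Rgs16, r was 0.91 over the 25 groups and 0.34 within the 12 tumor groups. For Dusp1 and Dusp5, it was -0.49 and 0.63. The 25 groups span both tissues, the 12 tumor groups share 2 libraries, and the values are descriptions only.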
